A study of Mus musculus with 9 samples.

Results

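The semaphorins, ephrins, Slits and netrins and their receptors were described in the spinal cord of mice on day 7 after a contusion, with and without FIPI, an inhibitor of phospholipase D. Members were the protein-coding genes whose mouse symbol belongs to the semaphorin classes 3 to 7, the plexins, the neuropilins, the ephrins and Eph receptors, Slit, Robo, netrin, Unc5 or Dcc. There were 68 of them among 52550 genes in the count table, of which 34 encode ligands and 34 encode receptors or co-receptors, and all 68 passed the filter on low counts. Ntn3 was not analysed here. The RNA came from 9 female C57BL/6N mice, which were adult with no age in weeks stated, 3 to a group. Sham mice had the laminectomy alone, and no injection is named for them. In the SCI group the cord was struck at T10 and the vehicle DMSO was injected intraperitoneally. The SCI+FIPI group had an identical contusion and was injected with a daily dose of FIPI. Treatment began immediately after the injury and went on until the mice were killed. The tissue was a segment of whole cord around the injury epicenter, so neurons, glia, vessels, meninges and infiltrating cells contribute to each library, and fewer cells of a type and less RNA per cell cannot be told apart. Sham differs from SCI in both the contusion and the vehicle.

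Guidance ligands steer growing axons by attracting or repelling the growth cone. Secreted class 3 semaphorins bind neuropilins, which signal through plexins, while the membrane-bound classes bind plexins directly. Ephrin-A ligands are anchored by a lipid and ephrin-B ligands span the membrane, and both bind Eph receptor tyrosine kinases on the neighbouring cell. Slits repel axons through Robo receptors, and netrins attract through Dcc and repel through Unc5. In the adult cord several of these ligands are made by oligodendrocytes, astrocytes and scar cells and are known as inhibitors of axon growth, and the same families pattern blood vessels.

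Total counts per mouse lay between 20806000 and 24582377. The first principal component of log2 CPM held 77.3% of the variance and separated the Sham mice from both injured groups. Sham mice lay at -94.6 to -76.7 on it, SCI+FIPI mice at 27.0 to 33.9 and SCI mice at 47.1 to 64.4. The SCI+FIPI mice thus lay between the other groups over all genes tested as well. Summed neuron markers, such as Rbfox3 and Snap25, lay at 8628 to 9764 CPM in Sham, 2670 to 3789 CPM in SCI and 4384 to 5193 CPM in SCI+FIPI mice, and 15 of 15 were called lower in SCI than in Sham. Oligodendrocyte markers lay at 33174 to 34783, 23571 to 26252 and 24074 to 28506 CPM in the same order, with 4 of 8 called lower. Macrophage markers lay at 151 to 289, 8361 to 10253 and 5659 to 8416 CPM, and pericyte and fibroblast markers at 484 to 1106, 9262 to 12487 and 8537 to 10959 CPM, with 8 of 8 called higher after injury in both lists. Microglia markers (4 of 7), endothelial markers (4 of 7), astrocyte markers (3 of 8) and precursor markers (3 of 6) were also called higher, with 1 astrocyte and 1 precursor marker lower, and motor neuron markers (5 of 6) were called lower. Of the other lists, 1 of 5 Schwann cell, 1 of 3 T cell, 2 of 6 ependymal and 2 of 6 bone markers were called higher, and 1 of 6 ependymal and 1 of 7 skeletal muscle markers lower. Each marker tested had counts in at least 1 library, and neutrophil markers stayed at 11.98 to 63.5 CPM in all 9 mice.

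The comparison of SCI with Sham asked which guidance genes differed after the contusion. CPM are read counts scaled to a common library size. A gene was called changed at a Benjamini-Hochberg adjusted p under 0.05, over 18699 genes, in the quasi-likelihood test of edgeR, and a log2 fold change of at least 0.5 in size. Of the 68 members, 20 rose and 20 fell, and 28 were not called. The changed share was 58.8%, against 47.0% of all genes tested, and the shares that rose and fell were both 29.4%, against 24.4% and 22.5% of all genes. The median log2 fold change of the members was -0.11, and that of all genes was -0.0031. Among ligands 9 rose and 7 fell, and among receptors and co-receptors 11 rose and 13 fell. The families moved in different ways. Both neuropilins and 3 of 9 plexins rose, 5 of 5 Dcc and Unc5 receptors fell, 2 of 3 Slits fell, 2 of 3 netrins rose, and 8 of 9 EphA receptors changed, 4 in each direction. Of 13 class 4 to 7 semaphorins 1 rose and 1 fell, although past the adjusted p alone 4 were higher and 6 lower, against 33.5% and 32.4% of all genes. When GC content and length entered as offsets, the same comparison gave 16 rises and 26 falls among the members, while over all genes the calls went from 4571 higher and 4209 lower to 3771 higher and 5228 lower and the median of all genes went to -0.14, against which the members' values then stand. With these offsets Sema3g (0.23), Sema4c (0.43), Efna1 (0.31), Epha1 (0.49), Slit2 (-0.27) and Unc5c (-0.23) were no longer called, and Sema3f, Sema4f, Sema4g, Sema6b, Sema7a, Efna2, Ephb6 and Slit3 were called lower, between -0.72 and -0.50. The p-values set each difference of group means against the spread between mice within groups, estimated over all 9 mice.

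**Figure D1:**
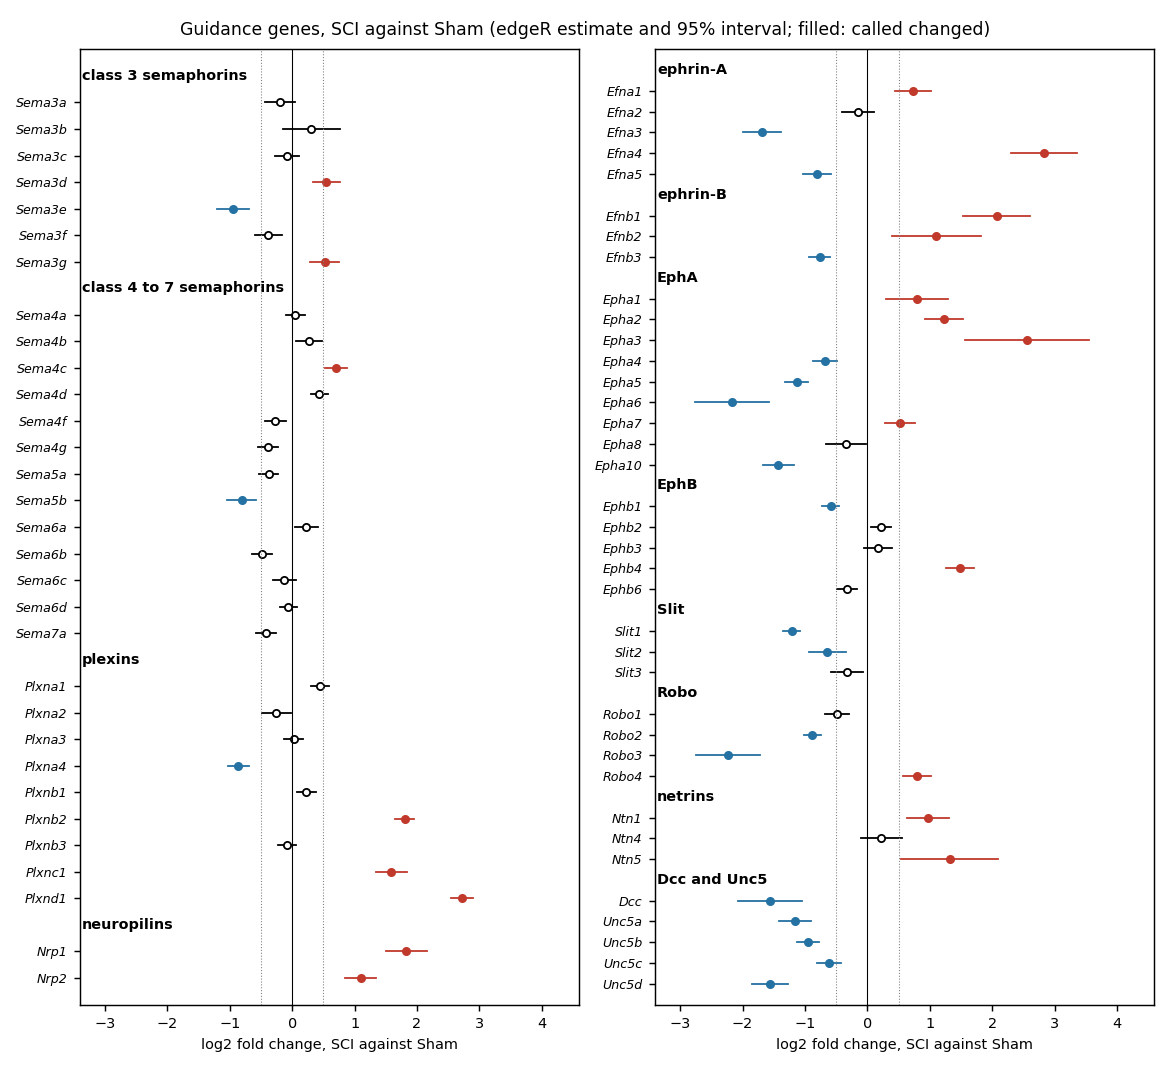
Log2 fold change of each of the 68 guidance genes in SCI against Sham (horizontal axis, log2 scale), grouped by family. Points are the edgeR estimates with 95% intervals from 9 mice, filled red where the gene rose and blue where it fell, and dotted lines mark a log2 fold change of 0.5 in size; Efna4 and Plxnd1 lie farthest to the right at 2.83 and 2.72 and Robo3 farthest to the left at -2.23.

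Plexins held the largest changes in abundance among the receptors. Plxnd1, a plexin of vessels and neurons that binds Sema3e without a neuropilin, stood at 27.0, 26.7 and 23.0 CPM in Sham, 154, 169.6 and 183 CPM in SCI and 129, 116 and 123 CPM with FIPI. Every SCI mouse lay above every SCI+FIPI mouse, and every injured mouse lay far above the Sham mice. It rose by 2.72 ± 0.08 (SE) on the log2 scale in SCI against Sham, a fold change of 6.61 (edgeR adjusted p = 1.74e-11). Plxnb2, a receptor of class 4 semaphorins found on many cell types including macrophages, was at 119, 114 and 106 CPM in Sham, 362, 399 and 417 CPM in SCI and 333, 310.0 and 330.2 CPM with FIPI. Its 3 groups did not overlap, with SCI highest and SCI+FIPI between. The rise over Sham was 1.80 ± 0.07 (SE) (log2, adjusted p = 7.04e-11 in edgeR). Plxnc1, the receptor of Sema7a, had 15.3, 15.9 and 15.3 CPM in Sham, 43.5, 44.1 and 52.0 CPM in SCI and 42.9, 34.8 and 30.5 CPM with FIPI. The injured groups lay above Sham, and the rise in SCI was 1.59 ± 0.12 (SE) (log2, edgeR adjusted p = 4.87e-08). Plxna4, a receptor of class 3 and class 6 semaphorins in neurons, fell by 0.86 ± 0.08 (SE) on the log2 scale (edgeR adjusted p = 1.31e-07). Plxnb1, the Sema4d receptor and the most abundant plexin per length in Sham, had 232, 205 and 208 CPM in Sham, 264, 258 and 233 CPM in SCI and 240.4, 255 and 233 CPM with FIPI. Its log2 fold change of 0.23 ± 0.07 (SE) was short of the 0.5 limit (edgeR adjusted p = 0.00958), and the highest Sham mouse and the lowest SCI mouse were nearly level.

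The promoters of both plexins are shown because they rose with the smallest p-values of the members. The windows are RefSeq sequences of 300 bases on GRCm38.p6, from 250 before to 50 after the start, at chr6:115994956-115995255 for Plxnd1 (ENSMUSG00000030123) and chr15:89180739-89181038 for Plxnb2 (ENSMUSG00000036606), both on the minus strand, and are written 5′ to 3′ with the letters GGGCGG of an Sp1 motif, on either strand, in capitals.
Plxnd1: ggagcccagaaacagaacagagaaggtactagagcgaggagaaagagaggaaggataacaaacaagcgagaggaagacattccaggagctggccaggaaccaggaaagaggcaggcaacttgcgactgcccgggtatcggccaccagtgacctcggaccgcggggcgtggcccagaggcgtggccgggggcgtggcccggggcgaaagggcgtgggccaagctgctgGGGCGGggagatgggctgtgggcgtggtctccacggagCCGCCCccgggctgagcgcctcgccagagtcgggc
Plxnb2: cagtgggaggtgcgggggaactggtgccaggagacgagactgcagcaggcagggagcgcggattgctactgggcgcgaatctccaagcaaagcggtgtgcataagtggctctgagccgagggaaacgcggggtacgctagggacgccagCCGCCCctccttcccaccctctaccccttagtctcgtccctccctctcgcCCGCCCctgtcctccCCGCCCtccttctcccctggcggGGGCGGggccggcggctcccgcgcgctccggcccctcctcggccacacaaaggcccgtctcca
Plxnd1 holds these letters 2 times and Plxnb2 holds them 4 times. A window was found for 58 of the 68 members. Of these 58, 42 hold GGGCGG or its reverse complement, against 35.9% of 27026 promoter windows of the same length, not matched in GC content. By their call in SCI against Sham, 13 of 19 members that rose, 11 of 15 that fell and 18 of 24 that were not called hold it. The AP-1 letters TGANTCA were found for 1 member (Sema4c) against 7.92% of all windows, the CRE letters TGACGTCA for 1 (Epha2) against 1.85%, the E-box CACGTG for 4 against 7.24%, and TATAAA for 2 against 14.2%. The PU.1 letters GAGGAAGT (3.25% of all windows) and the RE1 letters TTCAGCACC (0.37%) were searched on both strands with no match in the members' windows. A match describes these letters in this window and nothing more, and GGGCGG lies inside none of the other motifs searched.

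Both neuropilins, the co-receptors through which class 3 semaphorins and VEGF act, rose after injury. Nrp1 stood at 29.5, 31.5 and 34.6 CPM in Sham, 98.9, 106 and 135 CPM in SCI and 111, 82.5 and 92.8 CPM with FIPI, and Nrp2 at 54.4, 63.8 and 69.9 CPM in Sham, 112, 141 and 149 CPM in SCI and 116, 112 and 105 CPM with FIPI. For each gene the lowest injured mouse lay above the highest Sham mouse, and the SCI and SCI+FIPI mice overlapped. The rises in SCI were 1.83 ± 0.14 (SE) for Nrp1 and 1.10 ± 0.11 (SE) for Nrp2 on the log2 scale (edgeR adjusted p = 2.18e-06 and 5.32e-06). Macrophage, pericyte and fibroblast, and endothelial marker sums rose in the same libraries, and their part in the plexin and neuropilin values was not tested.

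Their ligands, the class 3 semaphorins, gave 2 rises and 1 fall among 7. Sema3e, which signals through Plxnd1, had 10.1, 12.4 and 11.5 CPM in Sham, 5.74, 6.12 and 5.78 CPM in SCI and 6.93, 7.25 and 6.88 CPM with FIPI. The Sham mice lay above all injured mice, and the fall was 0.95 ± 0.12 (SE) on the log2 scale (edgeR adjusted p = 4.79e-06). Its receptor Plxnd1 rose in the same comparison. Whole-cord RNA does not show whether the same cells or places were involved, and a link between the changes was not tested. Sema3b was the class 3 member with the highest level per length in Sham, 13.0 ± 0.723 FPKM (SD, n = 3). It was at 64.1, 62.4 and 58.3 CPM in Sham, 87.4, 67.2 and 73.4 CPM in SCI and 61.0, 91.3 and 104 CPM with FIPI. The 3 SCI mice lay above the 3 Sham mice, yet the spread within the injured groups was wide, and the log2 difference of 0.30 ± 0.19 (SE) did not pass (edgeR adjusted p = 0.207). Sema3d and Sema3g rose by 0.55 and 0.52 on the log2 scale, just past the limit. Without Sham replicate 1 their log2 fold changes were 0.45 and 0.49, and Sema3g was at 0.46 without SCI replicate 2, so neither call held in those fits. Sema3a, the growth cone collapsing semaphorin of the fibrotic scar, had a log2 fold change of -0.20 ± 0.11 (SE), with a 95% interval of -0.44 to 0.05. Sema3c and Sema3f had log2 fold changes of -0.09 and -0.38 and were not called.

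Of the membrane-bound class 4 to 7 semaphorins, Sema4c, a Plxnb2 ligand, rose by 0.70 ± 0.08 (SE) on the log2 scale and Sema5b fell by 0.81 ± 0.11 (SE) (edgeR adjusted p = 3.02e-06 and 1.05e-05). D430040D24Rik lies on the opposite strand over 7.27% of the exonic bases of Sema4c and reached 137 counts, against up to 1249 for Sema4c. Sema7a, a lipid-anchored semaphorin that binds Plxnc1 and integrins, had the highest level per length of the semaphorins in Sham, 54.4 ± 2.45 FPKM (SD, n = 3). It stood at 185, 167 and 182 CPM in Sham, 139.8, 139 and 120.1 CPM in SCI and 112, 125 and 130.3 CPM with FIPI. All injured mice lay below the Sham mice, but the log2 fold change of -0.42 ± 0.07 (SE) was inside the limit (edgeR adjusted p = 0.000151). Sema4d, which oligodendrocytes make and which binds Plxnb1, had a log2 fold change of 0.43 ± 0.06 (SE) and was likewise not called, although its adjusted p was 1.88e-05 in edgeR. Sema6b at -0.49 lay just inside the limit and was called lower without Sham replicate 2 (-0.52) or SCI replicate 1 (-0.55). The other 8 had log2 fold changes between -0.39 (Sema4g) and 0.26 (Sema4b).

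**Figure D2:**
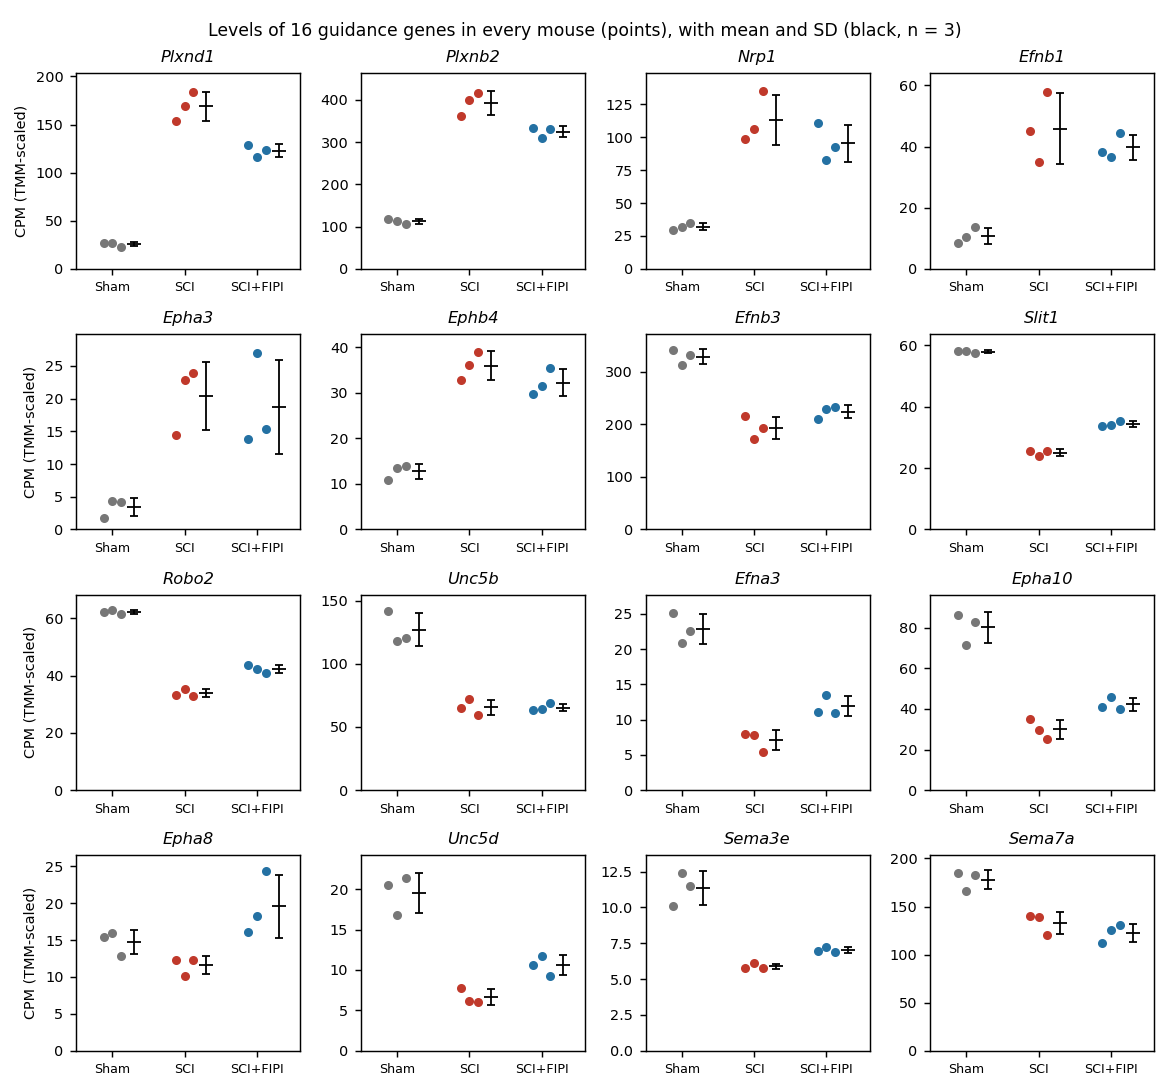
Level of 16 guidance genes in each mouse (vertical axis, CPM scaled by TMM, from 0), with one column of points for each of Sham, SCI and SCI+FIPI. Black marks are the mean and SD of 3 mice; Plxnd1, Plxnb2, Nrp1, Efnb1, Epha3 and Ephb4 lie higher in both injured groups than in Sham, and Efnb3, Slit1, Robo2, Unc5b, Efna3, Epha10, Unc5d, Sema3e and Sema7a lie lower.

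The ephrin ligands split within each class. Efnb3, a midline barrier to corticospinal axons that myelinating oligodendrocytes also express, was the most abundant member per length in each group, at 104 ± 3.31 FPKM in Sham, 60.2 ± 6.72 FPKM in SCI and 70.6 ± 3.99 FPKM in SCI+FIPI mice (SD, n = 3). By mouse it was at 341, 314 and 333 CPM in Sham, 216, 173 and 193 CPM in SCI and 210.3, 229.6 and 233 CPM with FIPI. Every injured mouse lay below every Sham mouse, and the fall in SCI was 0.76 ± 0.08 (SE) on the log2 scale (edgeR adjusted p = 5.24e-07). Efnb1 had 8.57, 10.3 and 13.7 CPM in Sham, 45.0, 34.8 and 57.9 CPM in SCI and 38.4, 36.5 and 44.3 CPM with FIPI, and Efnb2, the ephrin of arteries, had 14.4, 21.9 and 26.3 CPM in Sham, 40.4, 34.9 and 59.8 CPM in SCI and 35.0, 35.3 and 49.5 CPM with FIPI. Injured mice lay above Sham mice for both, but the SCI mice were spread widely, with SCI replicate 3 highest and SCI replicate 2 lowest for each gene. Efnb1 rose by 2.07 ± 0.23 (SE) and Efnb2 by 1.10 ± 0.30 (SE) on the log2 scale (edgeR adjusted p = 7.11e-05 and 0.0146).

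Among the lipid-anchored ephrins Efna4 had the largest fold change of all members. It was at 0.431, 0.346 and 0.376 CPM in Sham, 2.94, 2.52 and 2.83 CPM in SCI and 2.55, 2.37 and 2.89 CPM with FIPI, on counts of 8 to 70 reads per mouse. The injured mice lay far above Sham and overlapped each other, and the rise was 2.83 ± 0.25 (SE) on the log2 scale (edgeR adjusted p = 1.29e-07), with a gene on the opposite strand over 10.5% of its exonic bases that reached 12 counts. Whether the counting used the strand was not stated, so reads of such pairs cannot be told apart. Other members also share exonic bases with a gene on the opposite strand. Among them are Plxna1 with Gm26811 (10.7% of its exonic bases, up to 45 counts) and Unc5a with Hk3 (0.816%, up to 1715 counts). Efna1 rose by 0.74 ± 0.14 (SE), and Efna5 fell by 0.80 ± 0.11 (SE) on the log2 scale. Efna3 stood at 25.2, 20.9 and 22.6 CPM in Sham, 7.97, 7.81 and 5.44 CPM in SCI and 11.1, 13.6 and 10.99 CPM with FIPI. The 3 groups did not overlap, with SCI lowest, and the fall in SCI was 1.69 ± 0.14 (SE) on the log2 scale (edgeR adjusted p = 8.37e-08). On the opposite strand Gm15998 covers 14.1% of the exonic bases of Efna3 and reached 26 counts, against 129 to 541 for Efna3. Efna2 was not called, at -0.15 ± 0.12 (SE).

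Of the EphA receptors, Epha3 and Epha2 rose most. Epha3 had 1.82, 4.28 and 4.18 CPM in Sham, 14.5, 22.9 and 23.9 CPM in SCI and 13.8, 27.0 and 15.4 CPM with FIPI, and Epha2, a receptor of epithelial, endothelial and activated glial cells, had 4.26, 3.54 and 4.47 CPM in Sham, 9.10, 10.6 and 8.99 CPM in SCI and 6.84, 8.56 and 7.59 CPM with FIPI. Both were higher in all injured mice than in all Sham mice, and the mice of a group differed widely in Epha3, with an SE of 0.42 around its log2 rise of 2.56 (edgeR adjusted p = 0.00117). Epha2 rose by 1.23 ± 0.14 (SE) on the log2 scale (edgeR adjusted p = 2.51e-06). Epha1 rose by 0.79 ± 0.23 (SE) on counts of 29 to 77, with Zyx on the opposite strand over 6.01% of its exonic bases at up to 3941 counts. Epha7 rose by 0.52, and had a log2 fold change of 0.41 without SCI replicate 3.

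The other 4 EphA receptors that were called fell. Epha10, a member without kinase activity and the most abundant EphA per length in Sham, was at 86.2, 71.7 and 82.9 CPM in Sham, 35.0, 29.4 and 25.3 CPM in SCI and 41.0, 46.1 and 39.8 CPM with FIPI. Epha5 was at 39.7, 35.9 and 42.8 CPM in Sham, 19.4, 16.9 and 17.6 CPM in SCI and 21.8, 21.5 and 21.6 CPM with FIPI. In both the Sham mice lay highest and the SCI mice lowest, with no overlap between the 3 groups. The falls in SCI were 1.42 ± 0.11 (SE) and 1.13 ± 0.08 (SE) on the log2 scale (edgeR adjusted p = 2.49e-07 and 2.19e-08). Epha6 had 3.35, 2.76 and 3.89 CPM in Sham, 0.503, 0.951 and 0.759 CPM in SCI and 1.56, 1.40 and 1.01 CPM with FIPI. All injured mice lay below Sham, with SCI lowest, and it fell by 2.17 ± 0.28 (SE) (log2, edgeR adjusted p = 6.13e-06), on counts of 12 to 93. Epha4, the receptor by which corticospinal axons read Efnb3, fell by 0.68 ± 0.09 (SE), and its ligand fell by a like 0.76. Epha8 was not called in this comparison, at -0.34 ± 0.15 (SE) (edgeR adjusted p = 0.0576).

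Of the EphB receptors Ephb4, the venous partner of Efnb2, rose and Ephb1 fell. Ephb4 stood at 10.9, 13.6 and 13.9 CPM in Sham, 32.7, 36.1 and 39.0 CPM in SCI and 29.7, 31.5 and 35.4 CPM with FIPI. All injured mice lay above the Sham mice, and the rise was 1.49 ± 0.11 (SE) on the log2 scale (edgeR adjusted p = 1.43e-08), next to the rise of 1.10 in Efnb2. Ephb1 fell by 0.59 ± 0.06 (SE). Ephb6, a member without kinase activity and the most abundant EphB per length in Sham, had 73.1, 69.2 and 70.5 CPM in Sham, 61.2, 53.1 and 54.9 CPM in SCI and 50.9, 61.1 and 59.1 CPM with FIPI. The injured mice lay below Sham, and the log2 fold change of -0.33 ± 0.08 (SE) stayed inside the limit. Ephb2 and Ephb3 had log2 fold changes of 0.22 and 0.17.

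Slit1, Slit2, Robo2 and Robo3 fell, and the vascular Robo4 rose. Slit1 had 58.2, 58.2 and 57.5 CPM in Sham, 25.7, 23.8 and 25.5 CPM in SCI and 33.7, 34.1 and 35.5 CPM with FIPI. The groups did not overlap and the spread within each was under 3 CPM, and the fall in SCI was 1.21 ± 0.06 (SE) on the log2 scale (edgeR adjusted p = 7.31e-10). Slit2 fell by 0.64 ± 0.13 (SE), and Slit3 was not called, at -0.32 ± 0.12 (SE). Robo2 was at 62.1, 62.9 and 61.5 CPM in Sham, 33.3, 35.4 and 32.7 CPM in SCI and 43.6, 42.1 and 40.8 CPM with FIPI. Again each group stood apart, with the SCI mice lowest and a fall of 0.88 ± 0.06 (SE) on the log2 scale (edgeR adjusted p = 9.86e-09). Robo3, which commissural axons use at the midline, was at 4.12, 5.53 and 5.31 CPM in Sham, 1.22, 1.16 and 0.802 CPM in SCI and 1.21, 1.61 and 1.97 CPM with FIPI, on counts of 19 to 128. The injured groups overlapped each other below Sham, and the fall in SCI was 2.23 ± 0.24 (SE) (log2, edgeR adjusted p = 1.01e-06). Robo1, the most abundant Robo per length in Sham, had 73.9, 64.7 and 83.8 CPM in Sham, 47.5, 55.4 and 56.0 CPM in SCI and 57.4, 56.2 and 60.9 CPM with FIPI. Its log2 fold change of -0.49 ± 0.09 (SE) was just inside the limit, and without Sham replicate 2, SCI replicate 2 or SCI replicate 3 it was -0.58, -0.52 and -0.52 and called lower. Robo4, of endothelial cells, rose by 0.79 ± 0.10 (SE) (edgeR adjusted p = 6.91e-06).

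Ntn1 and Ntn5 rose, while Dcc and the Unc5 receptors fell. Ntn1, the attractant of the ventral midline and the most abundant netrin, stood at 39.5, 45.2 and 45.8 CPM in Sham, 83.2, 74.2 and 98.8 CPM in SCI and 65.7, 67.2 and 91.1 CPM with FIPI. The injured groups overlapped each other above Sham, and the rise in SCI was 0.97 ± 0.15 (SE) on the log2 scale (edgeR adjusted p = 0.000329). Ntn5 was at 0.383, 0.475 and 1.00 CPM in Sham, 1.64, 1.12 and 1.98 CPM in SCI and 1.65, 2.29 and 1.68 CPM with FIPI. It rose by 1.32 ± 0.36 (SE) on 8 to 54 counts (edgeR adjusted p = 0.00485), with 23.4% of its exonic bases under Sec1 on the opposite strand, which reached 24 counts. Ntn4 was not called, at 0.22 ± 0.15 (SE).

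The attractive receptor Dcc was at 4.31, 3.41 and 5.39 CPM in Sham, 1.97, 1.16 and 1.31 CPM in SCI and 2.06, 1.91 and 2.31 CPM with FIPI. Sham mice lay above all injured mice, and Dcc fell by 1.56 ± 0.24 (SE) on the log2 scale (edgeR adjusted p = 3.99e-05), on counts of 28 to 129. The repulsive receptor Unc5b, the most abundant of the Unc5 genes per length, had 142, 118 and 121 CPM in Sham, 65.2, 71.7 and 59.7 CPM in SCI and 63.2, 64.0 and 68.7 CPM with FIPI. Unc5a had 46.5, 41.2 and 48.1 CPM in Sham, 23.4, 21.6 and 15.8 CPM in SCI and 26.2, 28.0 and 25.8 CPM with FIPI, and Unc5d had 20.6, 16.8 and 21.4 CPM in Sham, 7.76, 6.12 and 5.99 CPM in SCI and 10.6, 11.7 and 9.27 CPM with FIPI. In all 3 the injured mice lay below the Sham mice, and in Unc5a and Unc5d the SCI mice also lay below the SCI+FIPI mice. The falls in SCI were 0.95 ± 0.08 (SE), 1.16 ± 0.12 (SE) and 1.56 ± 0.14 (SE) on the log2 scale (edgeR adjusted p = 1.11e-07, 1.97e-06 and 1.11e-07). Unc5c fell by 0.61 ± 0.09 (SE). Neuron markers were lower in the same libraries, and their part in the falls of the Eph, Slit, Robo, Dcc and Unc5 genes was not tested.

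Per length, the order of the members changed with injury. In Sham, Efnb3 and Sema7a led, and Sema6b, Plxnb1, Plxnb3, Unc5b and Sema6d followed between 20.4 and 22.8 FPKM, each within an SD of its neighbour in the order. In SCI, Plxnb2 went from rank 10, at 14.7 ± 0.887 FPKM, to rank 2, at 50.3 ± 3.56 FPKM, and Plxnd1 from rank 37, at 3.53 ± 0.340 FPKM, to rank 6, at 22.8 ± 2.01 FPKM (SD, n = 3). Unc5b went from rank 6 to 20, Epha10 from 13 to 35, Slit1 from 17 to 34 and Efna3 from 19 to 42. At the low end in SCI were Dcc, Epha6 and Robo3, at 0.111 ± 0.0327, 0.138 ± 0.0416 and 0.153 ± 0.0323 FPKM, whose SDs overlap.

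**Figure D3:**
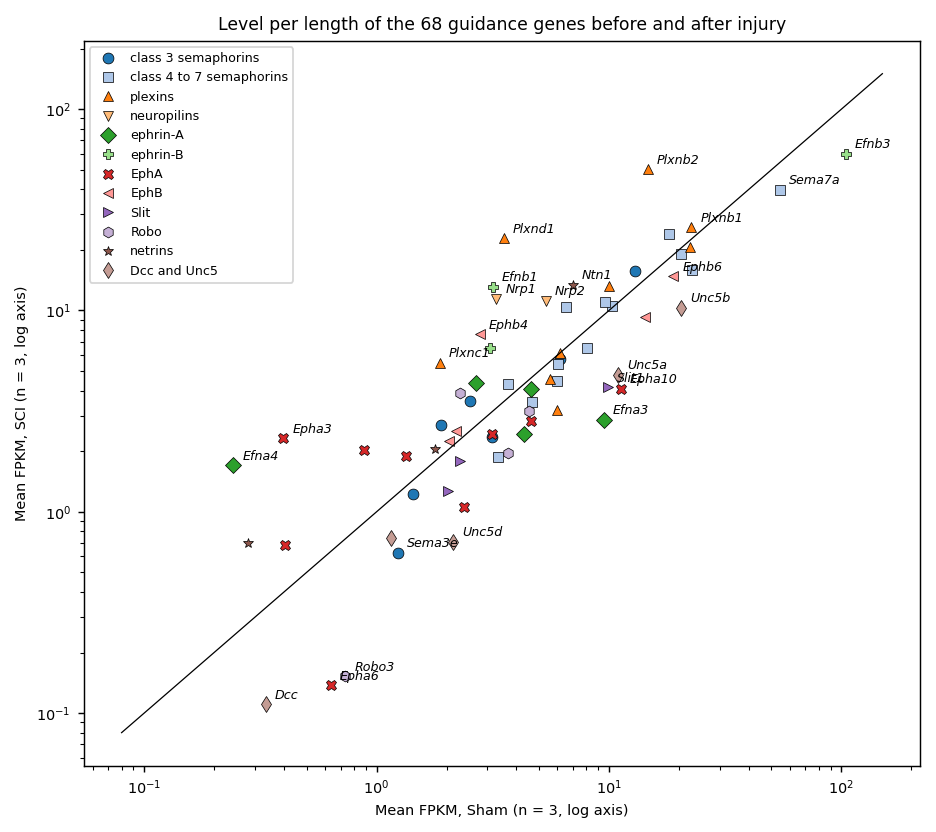
Mean FPKM of the 68 guidance genes in Sham (horizontal, log axis) and in SCI (vertical, log axis), 3 mice each, with a symbol for each family and a line where both are equal. Efnb3 lies at the top right of the plot, and Plxnb2, Plxnd1, Nrp1, Efnb1, Epha3 and Efna4 lie above the line, with Efna3, Epha10, Unc5d, Robo3, Epha6 and Dcc below it.

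Summed per family, plexin level rose from 92.6 ± 1.89 to 152 ± 4.05 FPKM and neuropilin level from 8.61 ± 0.900 to 22.6 ± 3.33 FPKM between Sham and SCI (SD, n = 3). Netrins went from 9.06 ± 1.02 to 16.2 ± 2.24 FPKM. In the other direction, Dcc and Unc5 went from 35.0 ± 2.57 to 16.7 ± 1.79 FPKM, Slits from 14.2 ± 0.188 to 7.24 ± 0.340 FPKM and ephrin-B from 110.4 ± 2.79 to 79.8 ± 9.78 FPKM. The ephrin-B sum fell although 2 of its 3 genes rose, since Efnb3 makes up most of it. Class 3 semaphorins were at 29.4 ± 0.753 and 31.9 ± 2.09 FPKM, and EphB receptors at 40.2 ± 0.866 and 36.4 ± 0.830 FPKM. These sums are descriptions and were not tested.

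**Figure D4:**
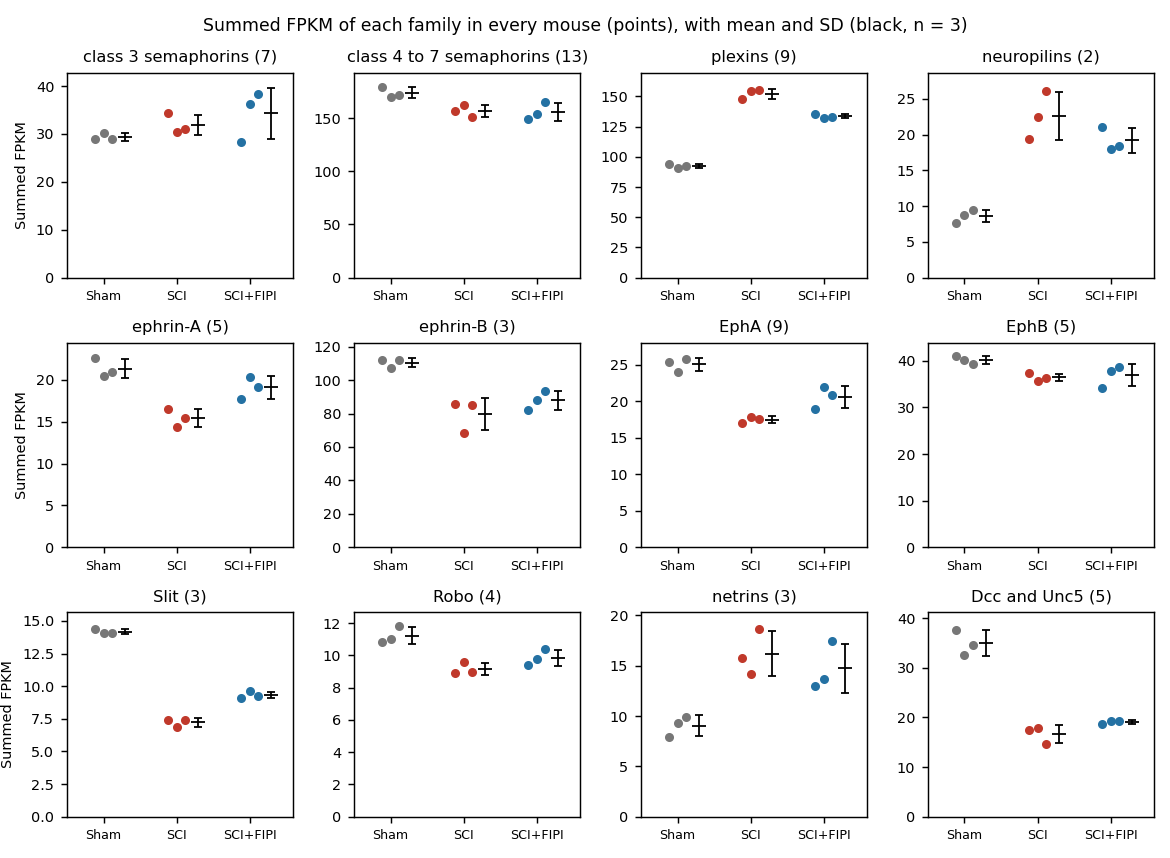
Summed FPKM of each of 12 guidance families in each mouse (vertical axis, FPKM from 0; number of genes in brackets), for Sham, SCI and SCI+FIPI. Points are mice and black marks the mean and SD of 3. Plexins, neuropilins and netrins lie higher in the injured groups than in Sham. Class 4 to 7 semaphorins, ephrin-A, ephrin-B, EphA, EphB, Slits, Robo and Dcc with Unc5 lie lower.

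SCI+FIPI was compared with SCI to see whether the inhibitor was accompanied by a difference in these genes. Of the 68 members 4 rose, which were Efna3, Epha8, Unc5d and Epha10, and 0 fell in edgeR. The changed share was 5.88%, against 3.06% of all genes tested, of which 2.36% rose and 0.695% fell. DESeq2 also called 0 members lower, and at an unadjusted p under 0.05 in edgeR 17 members were higher and 9 lower, against 13.7% and 11.5% of all genes at that p (25% and 13.2% of the members). Among the 4, the log2 differences were 0.75 ± 0.14 (SE) for Efna3, 0.75 ± 0.15 (SE) for Epha8, 0.67 ± 0.14 (SE) for Unc5d and 0.50 ± 0.11 (SE) for Epha10, with edgeR adjusted p of 0.00819, 0.00956, 0.0108 and 0.0193. For Efna3, Epha10 and Unc5d the SCI+FIPI mice lay between SCI and Sham, without overlap. Epha8 was at 15.4, 15.9 and 12.9 CPM in Sham, 12.3, 10.2 and 12.3 CPM in SCI and 16.1, 18.3 and 24.3 CPM with FIPI. Its SCI+FIPI mice lay above the SCI mice and also above the Sham mice, with SCI+FIPI replicate 3 highest of all.

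Epha8 alone of the 4 was called in each alternative fit. Without SCI+FIPI replicate 2 the log2 difference was 0.64 for Efna3, 0.59 for Unc5d and 0.43 for Epha10, and the edgeR adjusted p was 0.0514, 0.0666 and 0.0905, leaving 1 member called. Epha10 sat at the limit, and was also not called without SCI replicate 2 (0.49) or SCI replicate 3 (0.39). Over all genes the number called also moved with single mice, from 572 to 189 without SCI+FIPI replicate 2, 240 without SCI replicate 3, 341 without SCI replicate 2 and 1038 without SCI replicate 1.

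The promoters of the 3 ephrin and Eph genes that were higher with FIPI are shown to set their letters beside those of the plexins. They are RefSeq windows of 300 bases on GRCm38.p6 with GGGCGG on either strand in capitals, and in Epha8 also the E-box letters CACGTG, at chr3:89322890-89323189 on the minus strand for Efna3 (ENSMUSG00000028039), chr4:136956767-136957066 on the minus strand for Epha8 (ENSMUSG00000028661) and chr4:124881535-124881834 on the plus strand for Epha10 (ENSMUSG00000028876). Where RefSeq lists several starts the most upstream was used.
Efna3: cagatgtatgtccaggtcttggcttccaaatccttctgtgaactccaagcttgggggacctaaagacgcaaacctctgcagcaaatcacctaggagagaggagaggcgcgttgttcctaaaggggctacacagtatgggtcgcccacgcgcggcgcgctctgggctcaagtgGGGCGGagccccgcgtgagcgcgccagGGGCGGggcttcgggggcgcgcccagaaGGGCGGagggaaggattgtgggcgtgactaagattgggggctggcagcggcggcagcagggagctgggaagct
Epha8: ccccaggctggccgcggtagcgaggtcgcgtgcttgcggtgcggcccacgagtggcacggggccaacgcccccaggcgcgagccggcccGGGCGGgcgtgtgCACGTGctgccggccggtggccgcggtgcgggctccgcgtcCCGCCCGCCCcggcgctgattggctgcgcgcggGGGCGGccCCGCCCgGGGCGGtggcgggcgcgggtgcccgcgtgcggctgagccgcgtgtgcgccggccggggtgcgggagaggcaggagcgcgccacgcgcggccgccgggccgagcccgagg
Epha10: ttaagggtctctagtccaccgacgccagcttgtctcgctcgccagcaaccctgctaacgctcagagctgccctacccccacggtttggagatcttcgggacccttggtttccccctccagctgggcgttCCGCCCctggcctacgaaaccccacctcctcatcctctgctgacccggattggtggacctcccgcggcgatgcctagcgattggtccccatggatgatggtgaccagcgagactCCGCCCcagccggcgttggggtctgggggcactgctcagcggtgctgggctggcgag
GGGCGG occurs 3 times in Efna3, 6 times in Epha8 and 2 times in Epha10. No window was found for Unc5d.

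Past the adjusted p alone, without the fold limit, 6 members were higher with FIPI and 3 lower, against 6.04% and 3.58% of all genes tested. Slit1 and Robo2, a ligand and its receptor, were higher by 0.46 ± 0.06 (SE) and 0.32 ± 0.06 (SE) on the log2 scale (edgeR adjusted p = 0.00192 and 0.00755), and in both each SCI+FIPI mouse lay between the SCI and the Sham mice. The 3 lower ones were plexins, with log2 differences of -0.46 ± 0.08 (SE) for Plxnd1, -0.28 ± 0.07 (SE) for Plxnb2 and -0.23 ± 0.07 (SE) for Plxna1 (edgeR adjusted p = 0.00412, 0.0211 and 0.0389). Plxnd1 was close to the limit, and was called lower without SCI replicate 1 (-0.52). Plxnc1 was at -0.37 ± 0.11 (SE) (edgeR adjusted p = 0.0523), and at -0.51 and called without SCI+FIPI replicate 1. Unc5a was at 0.40 ± 0.12 (SE) (edgeR adjusted p = 0.0596), and at 0.52 and called without SCI replicate 1.

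Larger differences that missed the adjusted p belonged to low counts. Epha6 was at 0.83 ± 0.30 (SE), Epha1 at -0.65 ± 0.23 (SE) and Robo3 at 0.59 ± 0.26 (SE) on the log2 scale (edgeR adjusted p = 0.0929, 0.0892 and 0.171). The strongly induced Efna4, Efnb1, Efnb2 and Epha3 had differences of -0.08, -0.21, -0.17 and -0.13, with 95% intervals of -0.50 to 0.33, -0.69 to 0.28, -0.86 to 0.52 and -0.97 to 0.72, so differences of 0.5 in size were not resolved for the last 3. Unc5b and Epha4, which fell after injury, had intervals of -0.18 to 0.17 and -0.20 to 0.20, inside 0.5 on both sides. Of the neuron markers 9 of 15 rose with FIPI and their sums did not overlap between SCI and SCI+FIPI mice, while the macrophage, and the pericyte and fibroblast, sums overlapped. Microglia sums (677 to 752 CPM with FIPI, 802 to 930 CPM in SCI), endothelial sums (427 to 505 and 510 to 547 CPM), ependymal sums (66.9 to 70.5 and 72.9 to 77.2 CPM) and bone marker sums (2134 to 4301 and 4578 to 5700 CPM) were lower with FIPI without overlap. Bone marker sums in Sham were 126 to 164 CPM, although only 2 of 6 bone markers were called higher in SCI against Sham. Of the other lists, 1 pericyte and fibroblast, 1 ependymal and 1 bone marker were called lower and 1 bone marker higher. The part of these cell types in the guidance gene differences was not tested.

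**Figure D5:**
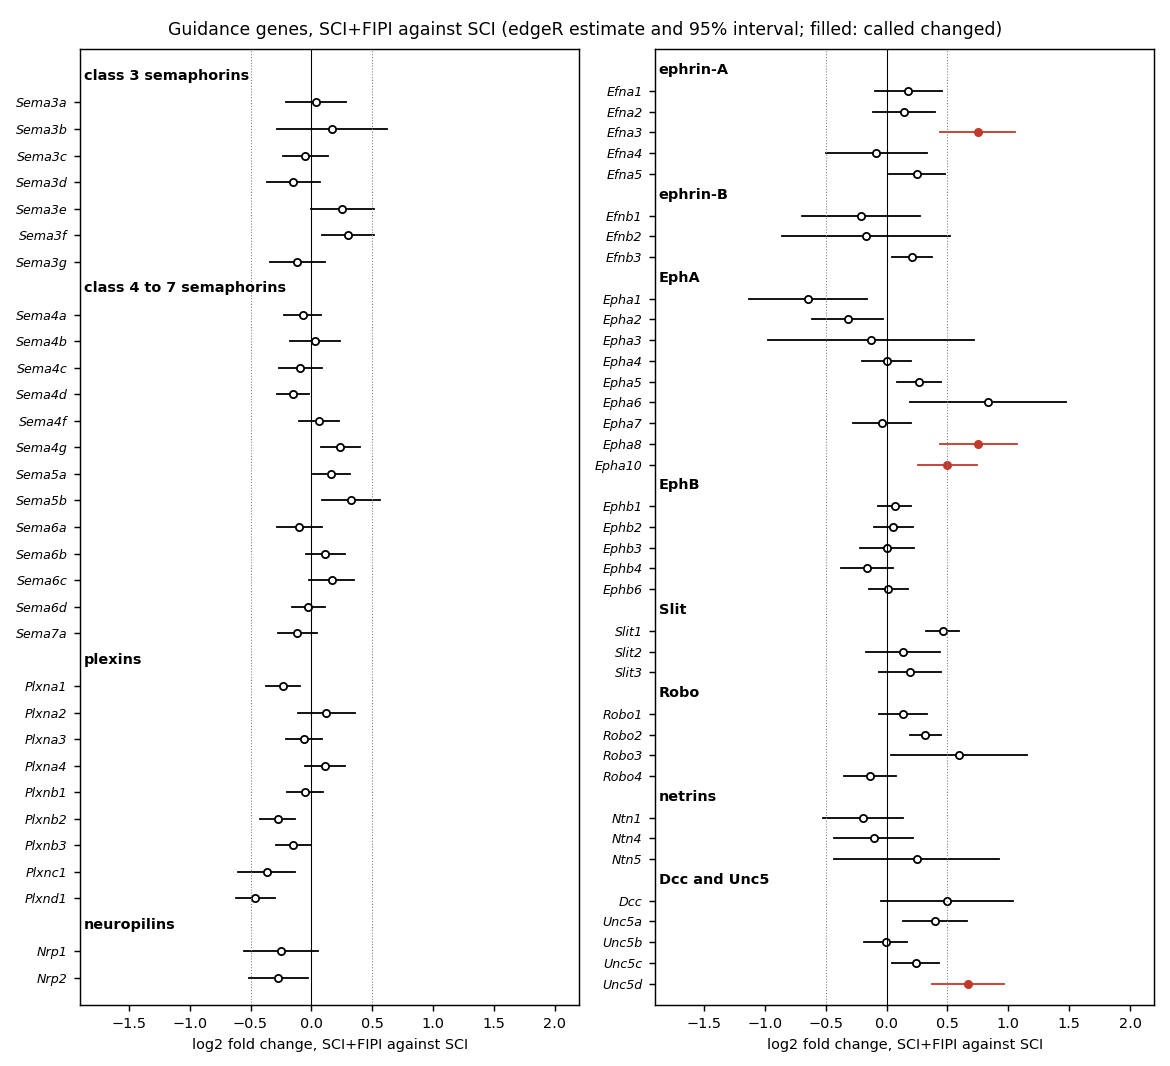
Log2 fold change of each of the 68 guidance genes in SCI+FIPI against SCI (horizontal axis, log2 scale), grouped by family. Points are the edgeR estimates with 95% intervals from 9 mice, filled where the gene was called changed, and dotted lines mark 0.5 in size; the 4 filled points are Efna3, Epha8, Epha10 and Unc5d, from 0.50 to 0.75.

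SCI+FIPI was also compared with Sham to see which members still differed from uninjured cord. The SCI+FIPI mice enter both this comparison and the last, and the Sham mice this and the first, so the 3 are not independent and their values are set side by side. In SCI+FIPI against Sham 16 members rose and 19 fell, and 33 were not called. Over all genes 38.1% were called, with 21.2% higher and 17.0% lower. Past the adjusted p alone 25 members were higher and 27 lower, against 30.1% and 29.0% of all genes. With the offsets for GC content and length 14 members were higher and 19 lower, over all genes 3957 higher and 3171 lower became 3113 and 4382, and the median of all genes was -0.15. Plxnd1 differed from Sham by 2.26 with FIPI and 2.72 without, Plxnb2 by 1.52 and 1.80, Nrp1 by 1.58 and 1.83, and Ephb4 by 1.33 and 1.49. Among the falls, Efna3 was at -0.94 and -1.69, Epha10 at -0.92 and -1.42, Unc5d at -0.89 and -1.56, and Slit1 at -0.75 and -1.21. Unc5b was at -0.96 and -0.95, and Epha4 at -0.68 and -0.68. Epha8 was above Sham by 0.41 ± 0.14 (SE) with FIPI, short of the fold limit (edgeR adjusted p = 0.0251), and at 0.53 and called without SCI+FIPI replicate 1.

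Some genes passed against Sham in 1 of the injured groups and missed in the other, which does not show that the groups differ. Epha1, at 0.15 with FIPI and 0.79 without, Sema3d, at 0.40 and 0.55, Sema3g, at 0.41 and 0.52, and Epha7, at 0.48 and 0.52, were called higher in SCI and not in SCI+FIPI mice. Sema5b, at -0.48 and -0.81, and Unc5c, at -0.37 and -0.61, were called lower in SCI and not in SCI+FIPI mice. Sema7a, at -0.54 and -0.42, was called lower with FIPI, but not without SCI+FIPI replicate 1 (-0.48). Against SCI, the SCI+FIPI differences of these genes were -0.65, -0.15, -0.12, -0.04, 0.32, 0.24 and -0.12 in the same order, with no call. Single mice also decided several calls of SCI+FIPI against Sham. Efnb2, at 0.93, was not called without Sham replicate 1 (0.73), Sham replicate 2 (0.96) or any 1 of the SCI+FIPI mice (0.75 to 1.02). Slit2, at -0.51, was not called without Sham replicate 3 (-0.41), SCI+FIPI replicate 1 (-0.42) or SCI+FIPI replicate 3 (-0.49). Efna5, at -0.55, was lost without SCI+FIPI replicate 1 (-0.48), and Ephb1, at -0.52, without that mouse (-0.49) or Sham replicate 1 (-0.48). With the offsets Sema4c (0.34), Efna1 (0.49), Efnb2 (0.82), Robo4 (0.39), Slit2 (-0.21) and Robo2 (-0.26) were not called, and Sema3d (0.57), Epha7 (0.62), Sema5b (-0.60) and Ephb6 (-0.56) were called. Sema3b, Sema5b and Epha7 were gained without single mice, at 0.67 without SCI+FIPI replicate 1, -0.59 without Sham replicate 2, -0.51 without SCI+FIPI replicate 2, and 0.56 without SCI+FIPI replicate 3.

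Other genes of these pathways were taken from a list of 116, of which 115 were tested, with co-receptors, further ligands and membrane partners on the one hand and cytoplasmic signalling genes on the other. In SCI against Sham 29 rose and 40 fell, with a median log2 fold change of -0.15, against 24.4% and 22.5% of all genes and their median of -0.0031. Among the 37 membrane partners tested 10 rose and 14 fell, and among the 78 signalling genes 19 rose and 26 fell. The largest rises were those of Trem2 and Tyrobp, which form a myeloid receptor complex that partners Plxna1, at 3.58 ± 0.17 (SE) and 3.43 ± 0.25 (SE), Rac2, the Rac GTPase of blood cells, at 3.20 ± 0.20 (SE), Nfatc4 at 2.91 ± 0.11 (SE), and Fes, a kinase downstream of plexins, at 2.61 ± 0.12 (SE) on the log2 scale. The largest falls were those of Ntng1, a membrane-anchored netrin relative that does not bind Dcc, at -1.61 ± 0.11 (SE), Chn1, a Rac regulator downstream of Epha4, at -1.56 ± 0.11 (SE), the Rac effector kinase Pak3 at -1.48 ± 0.08 (SE), Flrt1 at -1.46 ± 0.11 (SE) and Ptprd at -1.43 ± 0.07 (SE). These 10 had edgeR adjusted p from 5.71e-11 to 1.06e-05.

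In SCI+FIPI against SCI 2 of the 115 rose and 0 fell in edgeR, against 2.36% and 0.695% of all genes, and DESeq2 called 1 lower. At an unadjusted p under 0.05 in edgeR 35 were higher and 16 lower, 30.4% and 13.9% of the list, against 13.7% and 11.5% of all genes. Those that rose were Chn1, by 0.66 ± 0.11 (SE), and Cdk5r1, the activator of the semaphorin effector kinase Cdk5, by 0.54 ± 0.07 (SE) on the log2 scale (edgeR adjusted p = 0.00572 and 0.0017). Trem2, Tyrobp, Rac2 and Nfatc4 had differences of -0.23 ± 0.15 (SE), -0.30 ± 0.22 (SE), -0.41 ± 0.17 (SE) and -0.11 ± 0.09 (SE) and did not pass the adjusted p. The other genes named for injury passed the adjusted p and missed the fold limit. These were Fes at -0.40 ± 0.11 (SE), Ptprd at 0.36 ± 0.07 (SE), Pak3 at 0.42 ± 0.09 (SE), Flrt1 at 0.45 ± 0.11 (SE) and Ntng1 at 0.41 ± 0.12 (SE). Their edgeR adjusted p ran from 0.0084 to 0.0402. In SCI+FIPI against Sham 27 of the list rose and 31 fell, against 21.2% and 17.0% of all genes.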

How the data were processed

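Whole-cord RNA from the injury site was sequenced in 9 mice, 3 per group, after enrichment of polyadenylated RNA and random priming. The authors removed low-quality and adapter sequence and deposited raw read counts per gene, without normalization, for 52550 genes. The build GRCm38 is named in the submitters' processing notes, and the aligner, counter, annotation and use of strand are not given in the sources used here. Gene symbols, lengths and positions were taken from GENCODE M21, which holds 52403 of the identifiers. Columns were assigned by the sample titles. The members and lists of genes were chosen with earlier results of these data known.

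Counts were fitted in R 4.3.3 with edgeR 4.0.16 (TMM factors, filterByExpr by group, robust quasi-likelihood, 1 mean per group over all 9 mice), which left 18699 genes with a common biological coefficient of variation of 9.30%. A gene was called at an adjusted p under 0.05 and a log2 fold change of at least 0.5 in size, limits taken from the study's methods, which name no test. SE is the log2 fold change divided by the square root of its F statistic, and intervals are at 95%. CPM was scaled by TMM, and FPKM is the count over exonic length and library total. An exact permutation test of 3 mice against 3 gives no p under 0.1 and was not used for calls. Counts of 8 to 9895 per mouse lay behind the members' values, and the lowest are the least precise. Replicate pairs differed by 6.59 to 12.7 in chi-square per gene, above sampling noise, so no library was a copy. Replicate numbers recur across groups but mark separate animals, so no block was used.

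Levels in each mouse are given for the 12 largest rises and falls in SCI against Sham with mean log2 CPM of at least 0, the 8 members with the smallest p in SCI+FIPI against SCI, and the highest member per length of each family in Sham. In the other list, the 5 largest rises and falls are named. Cell type markers were used as levels. As alternatives, the fit was repeated with upper-quartile or RLE factors, without a filter or with at least 10 counts in every mouse, with only the groups compared, with a replicate block, with GC content and length as offsets, with DESeq2 1.42.0 and with each mouse left out. For the pathway list they were chosen after seeing the data. The fit was tested on simulated counts.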

Additional observations from a re-analysis of the deposited data

How the results depend on the processing

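No called member changed sign under any alternative. In SCI against Sham 32 of 40 calls held throughout, with 16 to 20 rises (26 past the adjusted p alone) and 20 to 26 falls (29 past the adjusted p alone). Upper-quartile factors ended the calls of Sema3d (0.48), Sema3g (0.46) and Epha7 (0.45) and added Sema6b (-0.55) and Robo1 (-0.55). In SCI+FIPI against Sham they added Sema5b (-0.53). In SCI+FIPI against Sham 26 of 35 calls held in every alternative that tested the gene, and the adjusted p alone gave 25 rises. In SCI+FIPI against SCI 1 of 4 calls held. Leaving out each mouse in turn gave 1 to 5 rises and 0 to 1 falls, GC and length offsets gave 1 fall (Plxnd1), the replicate block with these offsets also gave 1, and the adjusted p alone gave 3. Epha10 was also not called with RLE factors, no filter or DESeq2, at 0.50, nor with the offsets, at 0.47. For the pathway list the same comparison gave 1 to 5 rises and 0 to 1 falls with a mouse left out, and 1 fall by DESeq2. The replicate block alone gave 20 rises and 20 falls in SCI against Sham, 4 rises in SCI+FIPI against SCI and 16 rises and 19 falls in SCI+FIPI against Sham, with no other call changed. Correlations of same-numbered mice's deviations ran from -0.073 to 0.11. With 3 mice per group these values cannot exclude a factor shared by mice of the same number. Where these changes are not tied to fewer mice or genes, the cause was not tested. Depth limits Efna4, Ntn5, Epha6, Epha1, Robo3 and Dcc most.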
